A study of Mus musculus with 4 samples.

Results

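The 9 genes described here are the V, J and C gene segments of the mouse immunoglobulin lambda light-chain locus, namely Iglv1, Iglv2 and Iglv3, Iglj1, Iglj2 and Iglj3, and Iglc1, Iglc2 and Iglc3. They were taken by name from the 34866 genes of the expression table. The rule that names them uses no values, but earlier results of these data were known when they were chosen. Their levels were read in all 4 libraries, and the lambda to kappa ratio was computed from them. All 4 libraries came from λ-MYC Tom+/ki mice, which carry a translocated human MYC transgene under Igλ regulatory sequences, Cre expressed from 1 allele of the gene of activation-induced deaminase (AID), and a Rosa26 tdTomato allele that Cre switches on. Tomato (Tom) therefore marks cells that have expressed AID, and the mark persists after AID is gone. From each of 2 such mice, whose tumors (#1 and #2) contained IgM+ Tom+ cells, B220+ IgM+ spleen cells were separated by flow cytometry on Tom, with 1 Tom+ and 1 Tom- library per tumor. Every group thus carried the same 3 alleles, no mouse without the transgene was among the libraries, and the age of these mice is not given in the labels. Levels are in transcripts per 1000000 (TPM), a unit that corrects for gene length and has the same sum in each library, so read depth cannot be recovered from it.

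An antibody light chain is made from a V segment joined to a J segment by DNA recombination and spliced to a C segment. A mouse B cell carries either a kappa or a lambda chain, kappa is used by most cells, and lambda is usually rearranged after kappa. The mouse lambda locus holds few V segments, and each of its functional J segments stands just before its own C segment, so that Iglv1 usually joins Iglj1 or Iglj3 and Iglv2 and Iglv3 usually join Iglj2.

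On the GRCm38 build, all 9 genes lie on the minus strand of chromosome 16. In the order of transcription, Iglv2 lies at chr16:19260401-19260859, Iglv3 at chr16:19241207-19241690, Iglc2 at chr16:19198396-19200351, Iglv1 at chr16:19085017-19085500, Iglc3 at chr16:19065230-19065681 and Iglc1 at chr16:19061618-19062071. The annotated span of Iglc2 also holds Iglj2.

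**Figure D1:**
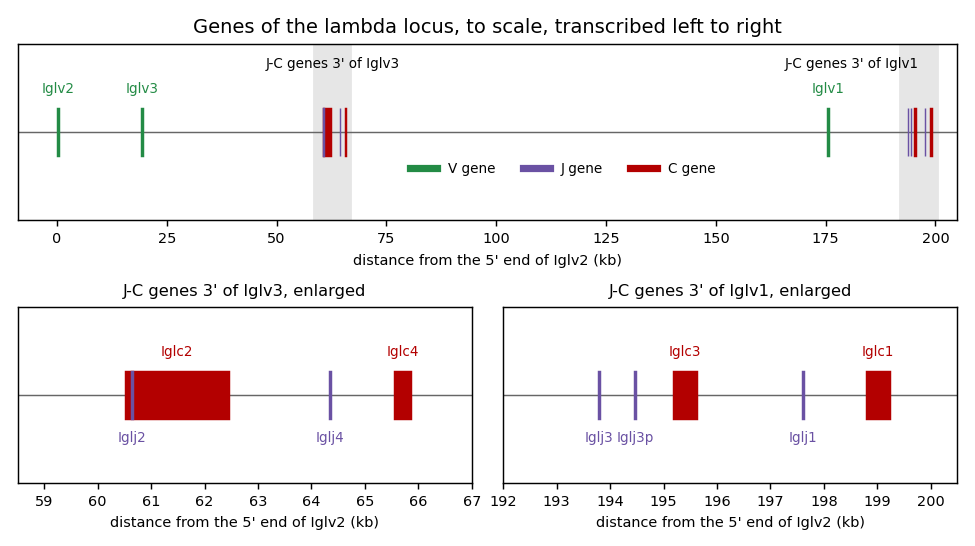
Map of the 12 annotated V, J and C genes of the lambda locus, with the distance from the 5' end of Iglv2 in kb on the horizontal axis and both J-C groups enlarged. Iglv2 and Iglv3 stand before the group that holds Iglc2, and Iglv1 stands between both groups, before Iglj3, Iglc3, Iglj1 and Iglc1.

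The 3 J segments have 38 bases each and are shown to compare their sequences. They are written 5′ to 3′ on the transcribed strand, with capitals at the positions where the 3 are not all the same.
Iglj1 (chr16:19063225-19063262): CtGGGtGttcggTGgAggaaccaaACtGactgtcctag
Iglj2 (chr16:19200198-19200235): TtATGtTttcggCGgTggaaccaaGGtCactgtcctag
Iglj3 (chr16:19067041-19067078): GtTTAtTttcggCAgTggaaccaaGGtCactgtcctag
Iglj2 and Iglj3 differed at 4 of the 38 bases, Iglj1 differed from Iglj2 at 9, and Iglj1 differed from Iglj3 at 11. A J segment is shorter than the reads, which had 60 bases, so the level of a J gene cannot be read against that of a V or C gene.

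A stretch of 100 bases near the start of each of the 3 constant regions is shown to compare their sequences. Capitals mark the positions where the 3 are not all the same.
Iglc1 (chr16:19061967-19062066): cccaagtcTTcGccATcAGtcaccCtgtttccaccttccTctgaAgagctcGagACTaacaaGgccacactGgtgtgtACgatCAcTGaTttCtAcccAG
Iglc2 (chr16:19198748-19198847): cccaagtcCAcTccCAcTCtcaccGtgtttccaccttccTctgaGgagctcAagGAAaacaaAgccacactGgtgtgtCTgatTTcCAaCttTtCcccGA
Iglc3 (chr16:19065577-19065676): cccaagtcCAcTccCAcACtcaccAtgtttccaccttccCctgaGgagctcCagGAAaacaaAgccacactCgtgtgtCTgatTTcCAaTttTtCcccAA
Over these bases Iglc2 and Iglc3 differed at 7 positions, whereas Iglc1 differed from Iglc2 at 25 and from Iglc3 at 24. Over the whole coding sequence Iglc2 and Iglc3 were 96.2% identical, and Iglc1 was 73.4% identical to Iglc2 and 74.5% to Iglc3. The longest run shared by Iglc2 and Iglc3 had 79 bases, more than the 60 bases of a read. It began at base 106 of the Iglc2 coding sequence and lies mostly outside the stretch shown. Of all 60-base windows, 100% in Iglc1, 94.2% in the IG_C transcript of Iglc2 and 94.1% in Iglc3 occurred in no other annotated gene.

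Iglv1 and Iglv2 are a second close pair, shown by the last 100 bases of their V exons, with capitals where these differ.
Iglv1 (chr16:19085017-19085116): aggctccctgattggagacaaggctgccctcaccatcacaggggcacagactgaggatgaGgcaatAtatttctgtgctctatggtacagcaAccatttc
Iglv2 (chr16:19260401-19260500): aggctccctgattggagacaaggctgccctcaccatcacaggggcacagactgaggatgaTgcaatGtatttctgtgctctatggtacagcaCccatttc
The V exons of Iglv1 and Iglv2 were 97% identical over 305 bases, while Iglv3 was 54% identical to Iglv1 and 52.7% to Iglv2. Of the 60-base windows, 83.4% in Iglv1, 82.1% in the longer transcript of Iglv2 and 100% in Iglv3 occurred in that gene alone. Values of Iglv1 against Iglv2, and of Iglc2 against Iglc3, are therefore uncertain where the authors' quantification divided shared reads between them.

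The 3 V genes were all higher in both libraries of tumor #2 than in both of tumor #1. The share of all genes that separate the tumors in this way was not counted. Iglv3 had a TPM of 15.3 in Tom- and 12.9 in Tom+ cells of tumor #1, and of 61.1 in Tom- and 74.4 in Tom+ cells of tumor #2. Tumor #2 was thus 4.01-fold higher than tumor #1 among Tom- and 5.79-fold higher among Tom+ cells. Iglv1 had a TPM of 2.66 and 0.478 in the Tom- and Tom+ cells of tumor #1, against 60.6 and 75.3 in those of tumor #2. The ratio of tumor #2 to tumor #1 for Iglv1 was 22.8 among Tom- and 158 among Tom+ cells, the latter against a TPM below 1. Iglv2 was listed at 0 in both libraries of tumor #1 and at 5.68 (Tom-) and 7.97 (Tom+) in tumor #2. In bulk libraries such as these, fewer cells with a transcript and less transcript per cell cannot be told apart. With 1 mouse per tumor, a difference between the tumors has no replicate and was not tested, and it cannot be told apart from a difference between the mice.

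The shares of the V genes also differed between the tumors. In tumor #1 Iglv3 made up 85.2% (Tom-) and 96.4% (Tom+) of the summed TPM of the 3 V genes. In tumor #2 Iglv1 and Iglv3 held nearly equal shares, with 47.6% and 48% in Tom- and 47.7% and 47.2% in Tom+ cells. Iglv2, the near copy of Iglv1, was the lowest of the 3 in all 4 libraries.

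The constant genes differed less between the tumors than the V genes did. Iglc3 had a TPM of 284 (Tom-) and 266 (Tom+) in tumor #1, and of 574 and 713 in tumor #2, a ratio of tumor #2 to tumor #1 of 2.02 among Tom- and 2.68 among Tom+ cells. Iglc1 had 351 and 316 in tumor #1 against 375 and 447 in tumor #2, with ratios of 1.07 and 1.42. Iglc2 had 16.6 and 13.2 in tumor #1 against 29 and 55 in tumor #2, with ratios of 1.74 and 4.18. Each of the 3 was thus higher in both libraries of tumor #2. How many of all genes separate the tumors in this way was not counted. For Iglc1 the log2(TPM + 1) of Tom- cells was higher by 0.095, against a median of 0.23 over all genes analyzed further below. Iglc1 was the highest C gene in tumor #1, with a ratio of Iglc1 to Iglc3 of 1.24 (Tom-) and 1.19 (Tom+), and Iglc3 was the highest in tumor #2, where that ratio was 0.654 and 0.628. Iglc2 was the lowest in every library, at 2.21% to 4.53% of the summed TPM of the 3 C genes.

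**Figure D2:**
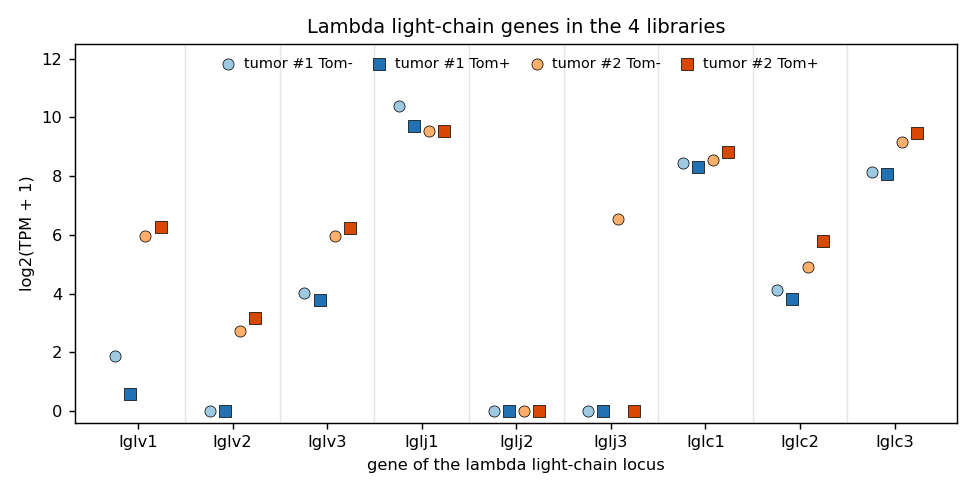
Level of each of the 9 genes, as log2(TPM + 1), in each of the 4 libraries, 1 point per library. Iglv1, Iglv2 and Iglv3 lie higher in both libraries of tumor #2 (Iglv1 at 60.6 and 75.3 TPM against 2.66 and 0.478), Iglc1 is nearly level (316 to 447 TPM), and Iglj2 is at 0 throughout.

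A gene was analyzed further if 2 or more libraries reached a TPM of 1. Among the 11339 genes that did so, 1343 (11.8%) had a log2(TPM + 1) more than 1 higher in tumor #2 than in tumor #1 in both Tom- and Tom+ cells. Of the 9 lambda genes 7 passed this filter, and Iglv1, Iglv3 and Iglc3 were among those genes. Iglv2 was too, but it passed the filter only through tumor #2, so its place among them follows from the filter. The median difference of tumor #2 over tumor #1 on this scale was 0.23 (Tom-) and 0.19 (Tom+) over all genes, and 1.01 and 1.98 over the 7 lambda genes. Iglv2, at 2.74 and 3.17, is included in the latter medians and raises both.

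Among the J genes, Iglj1 alone was above 0 in every library, and it was lower in tumor #2 than in tumor #1. Its TPM was 1330 (Tom-) and 837 (Tom+) in tumor #1, and 743 and 745 in tumor #2, so both libraries of tumor #2 were below both of tumor #1. The ratio of tumor #2 to tumor #1 was 0.559 among Tom- and 0.891 among Tom+ cells. Iglj3 was listed at 92.9 in Tom- cells of tumor #2 and at 0 in the other 3 libraries. Iglj2 was listed at 0 in all 4 libraries. All 8 of the 31-base windows of Iglj2 also occur in the longer Iglc2 transcript, which holds the whole of Iglj2 at its bases 117 to 154. None of the 60-base windows of the reads fits inside a J gene of 38 bases, and the part that the lengths of the J models have in their TPM was not tested.

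The ratio of lambda to kappa was taken from the constant genes first, as the summed TPM of Iglc1, Iglc2 and Iglc3 over that of Igkc, the single kappa constant gene. The summed lambda constant genes had 651 TPM in Tom- and 595 in Tom+ cells of tumor #1, and 978 and 1215 in those of tumor #2. Igkc had 5379 and 4933 TPM in tumor #1 and 4634 and 8295 in tumor #2. The ratio was 0.121 in both libraries of tumor #1, 0.211 in Tom- cells of tumor #2 and 0.146 in Tom+ cells of tumor #2. Kappa was thus the more abundant light chain in every library, with lambda at 10.8% of the light-chain constant TPM in both libraries of tumor #1, 17.4% in Tom- and 12.8% in Tom+ cells of tumor #2.

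The 3 kinds of segment gave different ratios. Summed over the 3 Iglv genes and the 100 kappa V genes, the lambda to kappa ratio was 0.00239 (Tom-) and 0.00204 (Tom+) in tumor #1 and 0.0259 and 0.0159 in tumor #2. The lambda share of V gene TPM was therefore 0.239% and 0.203% in tumor #1, far below the 10.8% by constant genes, and 2.53% and 1.57% in tumor #2. By J genes the lambda share was 3.73% and 2.52% in tumor #1 and 3.28% and 1.75% in tumor #2, with no separation of the tumors. The ratio of tumor #2 over that of tumor #1 was thus 10.8 (Tom-) and 7.83 (Tom+) by V genes, and 1.74 and 1.21 by constant genes. By J genes it was 0.875 and 0.689, in the other direction. The lambda J sum was Iglj1 alone except in Tom- cells of tumor #2, where Iglj3 added 92.9 TPM.

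**Figure D3:**
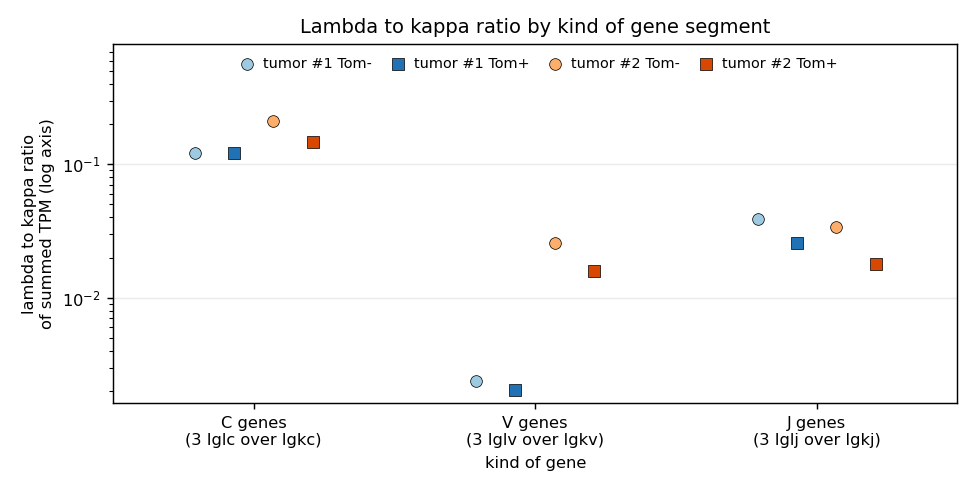
Ratio of summed lambda to summed kappa TPM, on a log axis, by constant, V and J genes, 1 point per library. The constant-gene ratio lies between 0.121 and 0.211, and the V-gene ratio between 0.00204 in tumor #1 and 0.0259 in tumor #2.

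The level of V transcripts per constant transcript was lower for lambda than for kappa or the heavy chain in all 4 libraries. The V to C ratio of summed TPM was 0.0275 (Tom-) and 0.0224 (Tom+) in tumor #1 and 0.13 in both libraries of tumor #2 for lambda. For kappa it was between 1.06 and 1.39, and for heavy-chain V genes over Ighm, the gene of the IgM constant region, between 0.941 and 1.63. Within the lambda locus the ratio depended on the constant gene. Iglv2 and Iglv3 over Iglc2, the constant gene they usually join, gave 0.917 and 0.975 in tumor #1 and 2.3 and 1.5 in tumor #2, from just below the range of the other loci to above it. Iglv1 over Iglc1 and Iglc3 gave 0.00419 (Tom-) and 0.000821 (Tom+) in tumor #1 and 0.0639 and 0.0649 in tumor #2. The constant transcripts without a matching level of V transcripts were thus those of Iglc1 and Iglc3, which summed to 635 and 582 TPM in tumor #1 and to 949 and 1160 in tumor #2. These ratios are descriptions of 4 libraries, without a test.

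**Figure D4:**
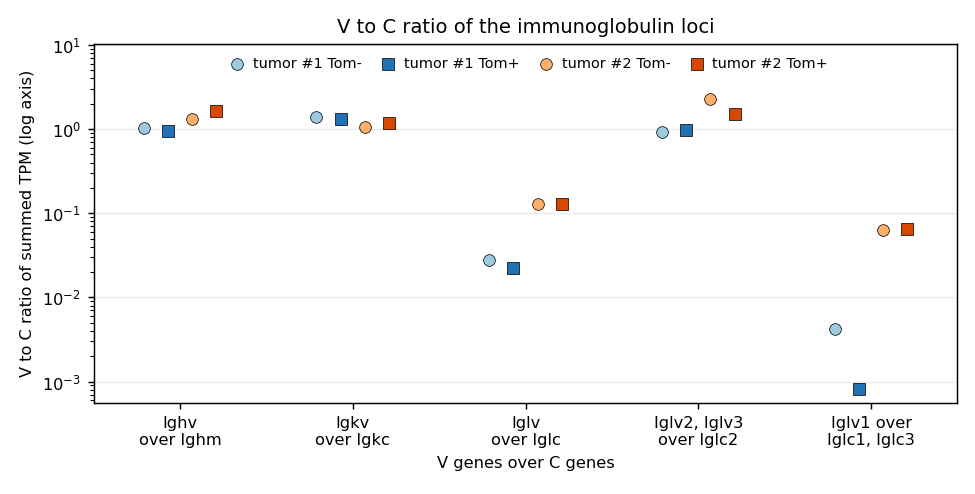
Ratio of summed V gene TPM to constant gene TPM, on a log axis, for the heavy, kappa and lambda loci and for both parts of the lambda locus, 1 point per library. Heavy-chain and kappa ratios lie between 0.941 and 1.63, Iglv2 and Iglv3 over Iglc2 between 0.917 and 2.3, and Iglv1 over Iglc1 and Iglc3 at or below 0.0649.

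The kappa locus of the same libraries held dominant V genes. The highest kappa V gene took 49.8% (Tom-) and 50.4% (Tom+) of kappa V TPM in tumor #1, and 58.4% and 32.5% in tumor #2. It was a different gene in each library of tumor #1 and the same gene in both of tumor #2. The share of the next-highest kappa V gene is not given here. Whether the top genes of tumor #1 only swapped rank at near-equal levels was not tested. The highest heavy-chain V gene was the same in both libraries of a tumor, with 86% and 81.1% of heavy-chain V TPM in tumor #1 and 82.2% and 42.4% in tumor #2. The 9 lambda genes together made up 3.19% and 2.54% of all immunoglobulin TPM in tumor #1 and 3.63% and 2.17% in tumor #2. As a share of all TPM they held 0.145% to 0.212%.

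The comparison of Tom+ with Tom- cells asks whether lambda transcripts differ between tumor cells with and without a history of AID expression. No lambda gene passed the test. Of all 11339 genes, 0 (0%) had an adjusted p below 0.05 by limma with the tumor as a block and Benjamini-Hochberg adjustment, and the smallest adjusted p was 0.936. At an unadjusted p below 0.05 there were 530 genes (4.67%) and none of the 7 tested lambda genes. The fit had 2 tumors and 1 residual degree of freedom per gene, so a missed threshold here does not show that the levels were equal.

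In tumor #1 the lambda genes tended to be lower in Tom+ cells, and in tumor #2 higher. Of the 7 tested genes 6 were lower in Tom+ cells of tumor #1 and higher in Tom+ cells of tumor #2, a pattern that 2336 of all tested genes (20.6%) showed. None of the 7 was higher in both tumors (2452 of all genes, 21.6%) or lower in both (3349 of all genes, 29.5%). Iglv2, at 0 in tumor #1, was the remaining gene. The median log2 fold change of the 7 was -0.23 in tumor #1 and 0.31 in tumor #2, against -0.0029 and -0.057 over all genes, whose SD was 0.60 and 0.79.

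Among the constant genes, Iglc1 had a log2 fold change of Tom+ over Tom- of -0.15 in tumor #1 and 0.25 in tumor #2, with a mean of 0.052 (SE 0.16, adjusted p = 0.987 by limma). Iglc3 had -0.092 and 0.31, with a mean of 0.11 (SE 0.16, adjusted p = 0.952 by limma). Iglc2 had the widest spread of the 3, with -0.31 and 0.90 and a mean of 0.29 (SE 0.37, adjusted p = 0.948 by limma). The mean of each was smaller than the difference between its values in the tumors. Summed over the 3 genes, the log2 fold change was -0.13 in tumor #1 and 0.31 in tumor #2, with a mean of 0.092 ± 0.31 (SD, n = 2 tumors).

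Among the V genes, Iglv1 had a log2 fold change of -1.31 in tumor #1, between TPM values of 2.66 and 0.478, and of 0.31 in tumor #2, with a mean of -0.50 (SE 0.48, adjusted p = 0.936 by limma). Iglv3 had -0.23 and 0.28 in the tumors, with a mean of 0.025 (SE 0.21, adjusted p = 0.997 by limma). Iglv2 had 0.42 in tumor #2 and a mean of 0.21 (SE 0.26, adjusted p = 0.945 by limma). That mean became -0.49 when Iglv1 and Iglv2, which share most of their sequence, were summed before the logarithm. Iglj1 had -0.67 in tumor #1 and 0.0044 in tumor #2, with a mean of -0.33 (SE 0.22, adjusted p = 0.936 by limma), so the Tom+ and Tom- libraries of tumor #2 were level for this gene.

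**Figure D5:**
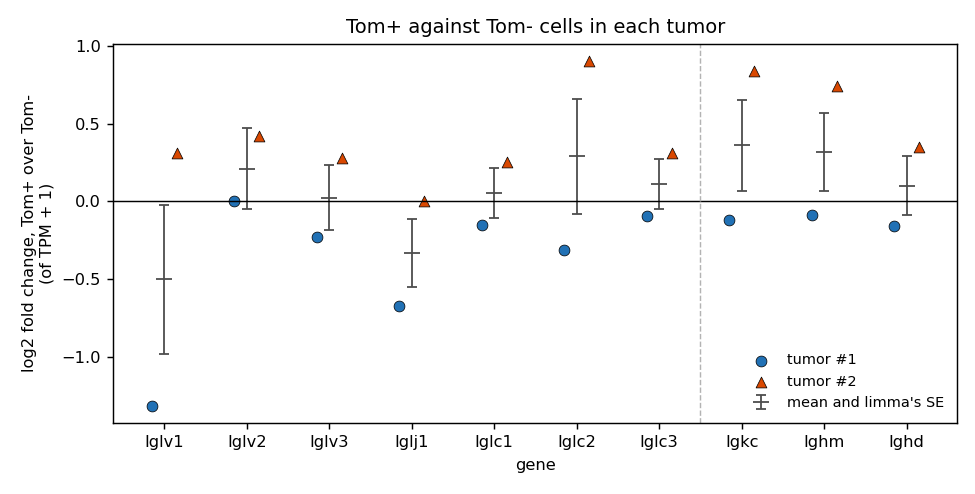
Log2 fold change of Tom+ over Tom- cells, on the log2(TPM + 1) scale, in each tumor for the 7 tested lambda genes and for Igkc, Ighm and Ighd, with the mean over both tumors and limma's SE. Tumor #1 lies at or below 0 and tumor #2 above 0 for every gene drawn, down to 0.0044 for Iglj1.

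Kappa and heavy-chain constant genes had the same signs as the lambda constant genes in each tumor. Igkc had a log2 fold change of -0.12 in tumor #1 and 0.84 in tumor #2 (mean 0.36, SE 0.29, adjusted p = 0.936 by limma). Ighm had -0.088 and 0.74, between 1334 and 1255 TPM in tumor #1 and 2191 and 3652 in tumor #2. Ighd, the constant gene of IgD, had -0.16 and 0.35. In tumor #2 the log2 fold change of the summed lambda constant genes (0.31) was thus smaller than that of Igkc (0.84), and that of the lambda to kappa ratio was -0.53. In tumor #1 the ratio had -0.0048. Its mean of -0.27 ± 0.37 (SD, n = 2 tumors) was smaller than its spread, and the lowest p that exact permutation of 2 pairs allows is 0.5. The ratio of summed lambda constant genes to Ighm was 0.488 (Tom-) and 0.474 (Tom+) in tumor #1, and 0.446 and 0.333 in tumor #2.

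The kappa J genes are short J segments as well. Igkj1 was at 15738 to 26182 TPM in the 4 libraries, above Iglj1 in each. Igkj5 had 17846 (Tom-) and 16207 (Tom+) in tumor #1 and 1052 and 6990 in tumor #2. Igkj2 ranged from 137 to 5564 TPM and Igkj3 from 219 to 680. Igkj4 had 36.9 and 99.6 in tumor #1 and 859 and 2463 in tumor #2, a log2 fold change of Tom+ over Tom- of 1.46 (SE 0.12, adjusted p = 0.936 by limma) that was 1.41 in tumor #1 and 1.52 in tumor #2.

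Genes around the light chains were examined as 4 lists, none of which held a gene past the adjusted threshold by limma. Of the 4 surrogate light-chain genes, which pair with the heavy chain before a light chain is made, Igll1 and Vpreb2 were at 0 in all 4 libraries and Vpreb1 did not exceed 0.306 TPM. Vpreb3, a relative of the other Vpreb genes, had 62.8 (Tom-) and 46.7 (Tom+) TPM in tumor #1 and 242 and 148 in tumor #2, and its log2 fold change was -0.56 (SE 0.15, unadjusted p = 0.0292, adjusted p = 0.936 by limma). Among 12 genes of V(D)J recombination and end joining, 11 were tested, of which both tumors had 1 higher and 2 lower in Tom+ cells (21.6% and 29.5% of all genes), and their median was -0.031. The largest log2 fold changes there were 0.53 (SE 0.33) for the end-joining factor Nhej1 and -0.40 (SE 0.29) for the ligase Lig4. Rag1 and Rag2, which cut the DNA for recombination, had at most 3.61 and 4.43 TPM, both in Tom- cells of tumor #2.

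Of 18 transcription factors that bind light-chain enhancers or the locus, all were tested. In both tumors, Tom+ cells had 2 of them higher and 9 lower (21.6% and 29.5% of all genes), and the median was -0.11 against -0.033 for all genes. Irf4, which binds the lambda and kappa 3′ enhancers with PU.1 or Spib, had 17.2 and 19.5 TPM in tumor #1 and 14.6 and 29.4 in tumor #2 (log2 fold change 0.57, SE 0.27). Ebf1 had 26.9 and 21.3 in tumor #1 and 87.7 and 50.5 in tumor #2 (-0.55, SE 0.19). Irf8 and Spib had unadjusted p values of 0.0441 and 0.0393 by limma, with log2 fold changes of -0.52 and -0.46. Among 14 receptor partners and folding factors, 3 had a positive and 4 a negative sign in both tumors, close to the 21.6% and 29.5% of all genes, with a median of -0.0054, and Jchain and Igkc had the largest values.

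Jchain, which links IgM into pentamers, had 0.33 and 1.72 TPM in tumor #1 and 1.24 (Tom-) and 209 (Tom+) in tumor #2, so that 1 library stood far above the others. The 8 plasma cell markers, Jchain included, summed to 182 and 181 TPM in tumor #1 and to 132 and 344 in tumor #2. Without Jchain the other 7 summed to 181 and 179 in tumor #1 and to 131 and 136 in tumor #2. Jchain thus carried most of the difference in the sum between the libraries of tumor #2. Of these 7, Mzb1 alone was lower in Tom+ than in Tom- cells of tumor #2 (80.6 against 94.8 TPM). The others were higher there, with Irf4 at 29.4 against 14.6 and Xbp1 at 21.2 against 18.7. Among them Prdm1, Sdc1 and Tnfrsf17 were below 1 TPM in tumor #2. The library with the highest Jchain also had the highest level of Iglv1, Iglv2, Iglv3, Iglc1, Iglc2, Iglc3, Igkc and Ighm. Iglj1 was instead highest in Tom- cells of tumor #1 (1330 TPM), and Iglj3 in Tom- cells of tumor #2 (92.9 TPM). How many of all genes are highest in Tom+ cells of tumor #2 was not counted. Whether the level of Jchain is related to those of the lambda genes was not tested.

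None of the lists of cell type markers held Tomato, so they do not bear on the Tom+ or Tom- label. The 8 B cell markers summed to 2454 and 2295 TPM in tumor #1 and to 5072 and 5948 in tumor #2. Without Ighm, the other 7 summed to 1120 and 1040 in tumor #1 and to 2881 and 2296 in tumor #2, and 6 of the 8 were lower in Tom+ cells of each tumor (29.5% of all genes). The 8 T cell markers summed to 23.5 and 15.9 TPM in tumor #1 and 76.8 and 74 in tumor #2, and the 8 myeloid markers to at most 13.3 in any library. The 6 erythroid markers summed to 21.5 and 17.6 in tumor #1 and to at most 0.967 in tumor #2, with Hba-a1 and Hba-a2 at 0 throughout. The 8 markers of B cell precursors summed to 12.7 to 15.1 TPM, with Igll1, Vpreb2 and Kit at 0 in all 4 libraries. By limma, Tom+ against Tom-, the largest log2 fold changes were -0.49 for Ms4a1 and -0.35 for Ptprc among B cell markers, -0.92 for Cd3d and 0.38 for Thy1 among T cell markers, and 0.61 for Cd68 among myeloid markers. They were 3.79 for Jchain and -0.64 for Derl3 among plasma cell markers, -0.56 for Hbb-bt and 0.28 for Hbb-bs among erythroid markers, and 0.44 for Il7r and -0.22 for Rag2 among precursor markers, none past the adjusted threshold. The B cell and T cell sums were higher in tumor #2, as Iglv1, Iglv3 and Iglc3 were, and their part in that difference was not tested. Most of the T cell sum came from Cd2, with 15.5 and 10.6 TPM in tumor #1 and 55.7 and 54.9 in tumor #2. Cd3e, Cd3g, Cd4 and Cd8a did not exceed 1.35 TPM, while Lck reached 11.5 and Cd3d 7.77, both in tumor #2.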

How the data were processed

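Single reads of 60 bases from polyA RNA of the 4 sorted libraries were processed by the authors with CASAVA 1.8, Cutadapt (reads shorter than 30 bases were dropped) and Salmon 1.9 on the GRCm38 transcriptome, and the authors deposited 1 TPM table of 34866 genes. TPM keeps no read depth, so no counting interval is given, and the authors' edgeR test, which needs counts, was not run. The annotation release behind the table is uncertain. GENCODE M21 held 34652 of the identifiers and gave symbols, positions, gene types and the printed sequences.

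Genes that reached a TPM of 1 in 2 or more libraries entered the fit on the log2(TPM + 1) scale, where differences of low genes appear too small, with limma 3.58.1 in R 4.3.3 (variance trend, two-sided, Benjamini-Hochberg adjustment over all 11339 genes). The tumor was a block because the libraries of a tumor came from the same mouse, as in the paired test of the study. Deviations of same-tumor libraries from the group means correlated across genes (Pearson's r = 0.626). With 1 mouse per tumor, p-values measure only the spread between these samples. The exact permutation test within 2 pairs cannot go below 0.5. Shared windows and identity were computed with Python 3.11.15 and Biopython 1.88.

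Named were all 9 lambda genes, the other lambda genes, Igkc, the kappa J genes, Ighm, Ighd, and in each list the genes past the threshold and the 2 with the largest change. The 5 genes most like the summed lambda constant genes over the libraries were taken by root mean square difference. Some items that these rules name are not reported here. Other genes, Rag1, Rag2, Irf8, Spib, and the list genes at 0 among them, were named after their values were seen. The lambda genes and lists were chosen with earlier results of these data known. Alternatives were no block, other pseudocounts (0.1 or 0.5), all genes without the filter, genes whose mean TPM reached 5, trimmed-mean scaling, quantile normalization, immunoglobulin genes left out of the scaling, no variance trend, each tumor left out, sums of near-identical genes, and ratios by other segments, of which those by J genes were added after seeing the data.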

Additional observations from a re-analysis of the deposited data

Results flagged for a closer look

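The change from Tom- to Tom+ cells had opposite directions in the 2 tumors for 6 of the lambda genes and for the summed constant genes, lower in Tom+ cells of tumor #1 and higher in those of tumor #2. With 1 pair of libraries per tumor this difference was not tested. On the log2 scale the change in tumor #2 minus that in tumor #1 was 1.61 for Iglv1 and 1.22 for Iglc2, the genes with the widest gap. It was 0.67 for Iglj1, whose change in tumor #2 was only 0.0044, and 0.51 for Iglv3. For Iglc1 it was 0.41, for Iglc3 0.40 and for the 3 constant genes summed 0.44. The same 6 genes kept this pattern under trimmed-mean scaling, quantile normalization and scaling without immunoglobulin genes. Of all genes, 22.6%, 21.9% and 24.9% showed it there. The other alternatives of the fit cannot turn the sign of a change within a tumor, so they could not alter the pattern. Over all 9 alternatives the share of all genes with the pattern was 16% to 24.9%.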

How the results depend on the processing

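No alternative gave a gene past the adjusted threshold. Without the replicate block the count was 0 with a smallest adjusted p of 1 and 140 genes at an unadjusted p below 0.05, against 530 with the block, and the range over all settings was 140 to 638. The adjusted p of the tested lambda genes lay between 0.913 and 1. Iglv2 turned from 0.21 to -0.49 (log2 fold change) when summed with Iglv1, since the sum in tumor #1, where Iglv2 is at 0, is Iglv1 alone, and it missed the filter at a mean TPM of at least 5. Leaving out each tumor gave -0.13 to 0.31 for the summed constant genes and -0.53 to -0.0048 for the lambda to kappa ratio, Tom+ against Tom-, and turned the sign of Iglv3, Iglc1, Iglc2 and Iglc3 without tumor #2 and of Iglv1 and Iglj1 without tumor #1. The log2 difference of the lambda to kappa ratio between the tumors was 0.54 by constant genes, 3.20 by V genes and, turning its sign, -0.36 by J genes, an alternative chosen after seeing the data. By J genes the Tom+ against Tom- log2 change of this ratio was -0.76, against -0.27 by constant genes, and the causes were not tested. The remaining alternative values, 25 of whole comparisons and 79 of single genes, those without 1 tumor included, changed no call, and of these only values without 1 tumor turned a sign. Limits are the unknown read depth, 2 mice, and shared reads of Iglv1 with Iglv2 and of Iglc2 with Iglc3.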

Other observations

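Of the 3 other annotated genes of the lambda locus, only Iglj3p was above 0 in more than 1 library. Iglc4 was listed at 3.63 TPM in Tom- cells of tumor #2 and at 0 in the other 3 libraries, and Iglj4, the J segment before it, was at 0 in all 4. Iglj3p, annotated as a J gene between Iglj3 and Iglc3, had 0 (Tom-) and 19.9 (Tom+) TPM in tumor #1 and 69.7 and 32.4 in tumor #2, a log2 fold change of 4.39 in tumor #1 and -1.08 in tumor #2 (mean 1.65, SE 1.53, adjusted p = 0.936 by limma). Iglj3p was thus listed above 0 in 2 libraries in which Iglj3 was at 0.

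Over the 4 libraries, genes whose level ran most like that of the summed lambda constant genes included Faap20, Tbc1d1, Zfp97 and Arl14ep. Their root mean square difference from it was 0.0219 to 0.0265, on the log2(TPM + 1) scale centered on each gene's mean, among 11332 genes compared. With 4 points per gene, this is a description of the libraries. Tbc1d1 had 15.7 (Tom-) and 14.4 (Tom+) TPM in tumor #1 and 23.6 and 31 in tumor #2. Faap20 had 5.11 and 4.51 in tumor #1 and 7.95 and 9.94 in tumor #2.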
